A study of Ovis aries with 42 samples.

Results

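The luteal pars tuberalis was compared with the luteal hypothalamus in 14 of the 42 RNA sequencing libraries of the study. These are all libraries whose column names end in the pars tuberalis luteal label (numbers 22 to 28, 7 libraries) and all whose names end in the hypothalamus luteal label (numbers 1 to 7, 7 libraries). Both groups came from adult female sheep of the Rasa Aragonesa breed sampled in the luteal phase, the stretch of the cycle in which progesterone from the corpus luteum is high, and no treatment or genotype is given for either. The other 28 libraries are the follicular and anestrous ones of the same tissues, again 7 in a group. They serve here as samples in which the tissue difference was measured again. The labels do not say whether the 7 libraries of a tissue came from separate ewes, so the p-values measure the spread between these samples, which may be technical.

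The pars tuberalis is the part of the pituitary gland that surrounds the stalk under the hypothalamus. Its endocrine cells carry melatonin receptors and release thyroid stimulating hormone, which acts back on the hypothalamus to set seasonal reproduction. The hypothalamus is brain tissue made of neurons, astrocytes, oligodendrocytes and the tanycytes that line the third ventricle, and its neurons release the hormone that drives the pituitary gonadotrophs. In the luteal phase progesterone restrains that release.

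The count table identifies features by Ensembl sheep gene ID and pairs none with a name. Of the 27054 IDs, 0 were found in the reference gene table used here, which lists 35057 genes of assembly ARS-UI_Ramb_v3.0. Lists of pituitary, neuronal and glial markers could therefore not be read, the labelled tissues were not tested against their defining markers, and 4 features are given by ID. No sequence is shown for the same reason.

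The luteal libraries held between 15477537 and 37726207 counts, averaging 26327905 ± 5947205 for the hypothalamus and 21035786 ± 3364970 for the pars tuberalis (SD, n = 7 each). For these totals the two-sided exact permutation p was 0.053 (Benjamini-Hochberg adjusted p = 0.265 over 5 library measures). The tissues used about the same number of features. At the depth of the smallest library, 18105 ± 479 features would be detected in a hypothalamus library and 18102 ± 446 in a pars tuberalis library (SD, n = 7 each; two-sided exact permutation p = 0.985 over 3432 splits, Benjamini-Hochberg adjusted p = 0.985 over 5 library measures). At least 1 CPM (the count scaled to the size of the library, a unit that does not correct for gene length) was reached by 14313 ± 467 features of a hypothalamus library and 14351 ± 426 of a pars tuberalis library (exact permutation p = 0.874, adjusted p = 0.985). The 10 largest features took 30.2 ± 9.08% of a hypothalamus library and 23.8 ± 7.56% of a pars tuberalis library, a difference within the spread of the libraries (exact permutation p = 0.178, adjusted p = 0.296). The hypothalamus ranged from 19.4% in library 2 to 43.0% in library 3, and the pars tuberalis from 14.9% in library 23 to 35.2% in library 24. The number of features that together made up the first 50% of the counts was 15 in library 3 and 59 in library 24, against up to 372 and 537 in other libraries of the respective tissue.

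Tissue was the main axis of variation. The first principal component of log2 CPM held 53.4% of the variance among the 14 libraries, with the 7 hypothalamus libraries between -139 and -73.0 and the 7 pars tuberalis libraries between 79.6 and 119. Across features, log2 levels correlated at 0.866 to 0.951 between hypothalamus libraries, at 0.894 to 0.957 between pars tuberalis libraries and at 0.682 to 0.841 across the tissues. These correlations describe pairs of libraries over features, which are not independent replicates. The second component (11.1%) did not follow tissue. Its lowest values were those of hypothalamus library 3 (-105) and pars tuberalis library 24 (-59.4), the libraries whose 10 largest features took the largest share within their tissue. Both also held the fewest counts of their tissue, 18511124 and 15477537, and the fewest detected features, 17439 and 17356. At the depth of the smallest library the detected features would number 17367 and 17356, still the fewest of each tissue.

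**Figure D1:**
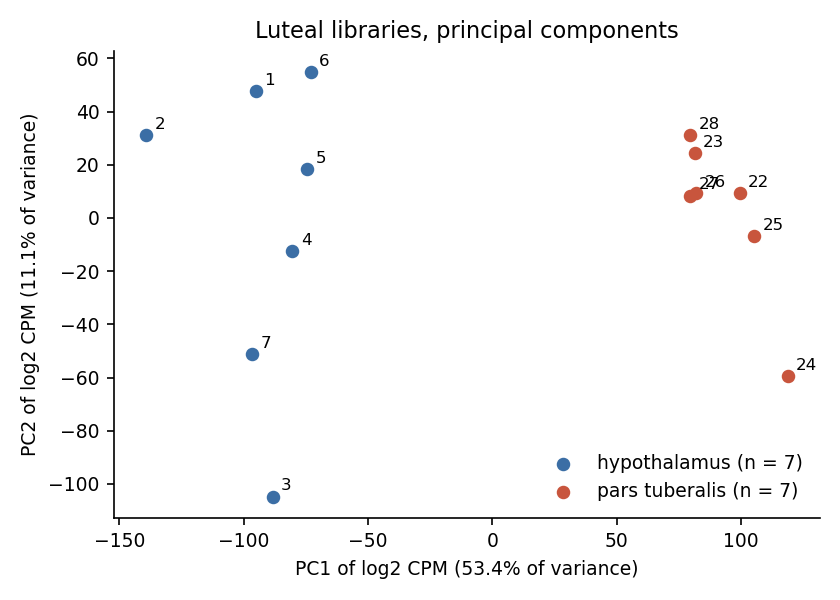
Scores of the 14 luteal libraries on the first and second principal components of log2 CPM, with points coloured by tissue and numbered by library. The first axis (53.4% of variance) separates the tissues, and libraries 3 and 24 lie lowest on the second (11.1%).

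More than 50% of the measured features differed between the luteal tissues. Of 15929 features tested, 8829 (55.4%) passed an adjusted p of 0.05 by edgeR's quasi-likelihood test, 4364 with the pars tuberalis and 4465 with the hypothalamus on the higher side. Against a 2-fold difference, 2307 features (14.5%) passed, 912 of them with more in the pars tuberalis and 1395 with more in the hypothalamus. The hypothalamus thus held 60.5% of the features past 2-fold. Without the 20 largest features the split was 844 to 1459, and it was 1152 to 1548 when the fit took account of how much of a library its 10 largest features held. In bulk tissue, a feature can be higher because more cells express it or because each cell holds more of its RNA, and these cannot be told apart.

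The hypothalamus excess ran through the sizes of difference. Among features past 2-fold, 584 exceeded 4-fold toward the pars tuberalis and 953 toward the hypothalamus. Over 8-fold the numbers were 254 and 435, over 16-fold 113 and 207, over 32-fold 53 and 89, and over 64-fold 21 and 44. The median feature past 2-fold was 5.002-fold higher in the pars tuberalis or 5.48-fold higher in the hypothalamus. The 2 directions therefore differed more in number than in typical size.

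The difference was also present at every level of abundance. Among the 3983 features with the lowest mean level (0.423 to 3.80 CPM), 251 passed the 2-fold test as higher in the pars tuberalis and 366 as higher in the hypothalamus. Among the 3982 features with the highest mean level (37.5 CPM and above), the numbers were 230 and 308. The share past 2-fold was 15.5% in the lowest class and 13.5% in the highest, although the share called at any size rose from 42.4% to 66.0%. The median standard error of the log2 fold change was 0.411 in the lowest class and 0.150 in the highest.

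**Figure D2:**
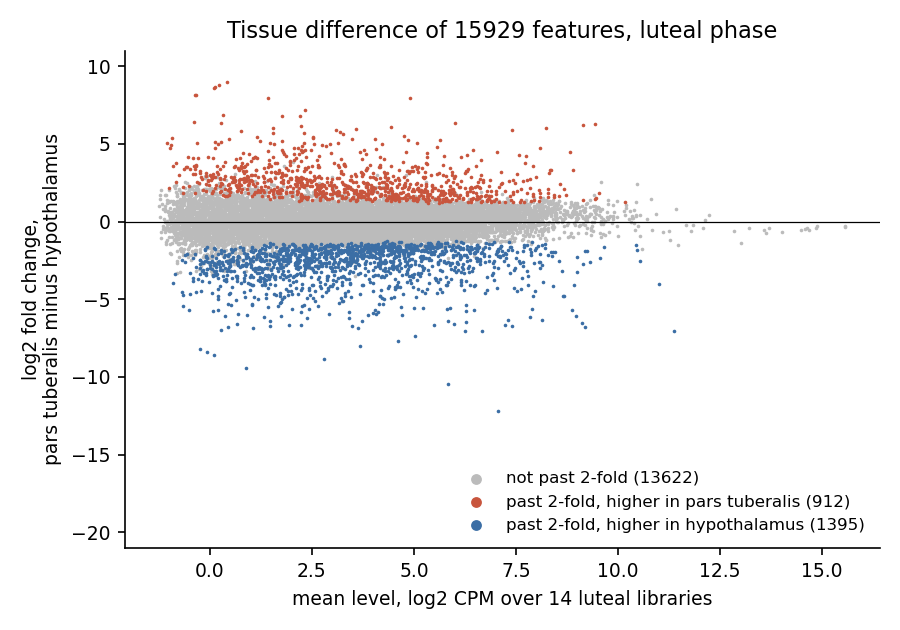
Log2 fold change (pars tuberalis minus hypothalamus, vertical) against mean level (log2 CPM over the 14 luteal libraries, horizontal) for each of the 15929 features tested. Features past 2-fold are coloured by direction (912 toward the pars tuberalis, 1395 toward the hypothalamus), and both occur along the range of levels up to the few most abundant features.

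For many features the size of the tissue difference was bounded. For 6819 features (42.8%) the 95% confidence interval of the difference lay within 2-fold in either direction, and for 2618 (16.4%) it lay within 1.5-fold. Of these 6819, 2188 were called at an adjusted p under 0.05, so they differed by a small amount. Of the 7100 features that were not called, 4631 had an interval within 2-fold, and for the rest the libraries leave a larger difference possible. The intervals are for single features and are not adjusted for their number.

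Separation of single libraries followed the same lines. For 4187 features (26.3% of those tested) the 7 values of one tissue all lay above the 7 values of the other, 2122 with the pars tuberalis above and 2065 with the hypothalamus above. Of the 912 features past 2-fold in the pars tuberalis direction, 821 were separated in this way, as were 1211 of the 1395 in the hypothalamus direction. This share is high because the test selects for it. Among the 184 overlapping features of the hypothalamus direction, the highest pars tuberalis value came from library 27 in 60 cases. Each other pars tuberalis library held it in 11 to 29 cases. The lowest hypothalamus value came from library 3 in 45 cases, library 6 in 42 and library 1 in 39. Among the 91 overlapping features of the pars tuberalis direction, library 3 held the highest hypothalamus value in 23 cases and library 5 in 19.

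Complete restriction to one tissue was rare. Of 12621 features with at least 1 CPM in every hypothalamus library, 2 had no count in any pars tuberalis library and 3 had at most 3 counts over the 7. Of 12795 features with at least 1 CPM in every pars tuberalis library, 2 had no count in any hypothalamus library and 4 had at most 3. The most abundant of the first kind lay at 3.51 CPM over the hypothalamus libraries, which is at least 172-fold higher than the limit of 0.0204 CPM that 3 counts over the 7 pars tuberalis libraries would give. The most abundant of the second kind lay at 2.74 CPM, at least 169-fold higher than the corresponding limit of 0.0163 CPM. These limits cover counting error only and take the deposited values as counted reads. If the values were derived from transcript coverage, which the sources used here do not settle, the limits do not hold as stated. With no minimum on the level, 17 features had counts in all 7 hypothalamus libraries and none in the pars tuberalis, and 16 the reverse.

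The features with the lowest p in the test against 2-fold are described by library, in CPM scaled by TMM (a correction for library makeup). As they were picked for a low p, the separation of their groups was likely from the start. ENSOARG00000009838 led the features higher in the pars tuberalis. Its level in pars tuberalis libraries 22 to 28 was 49.7, 52.4, 46.6, 59.99, 49.4, 56.1 and 49.0 CPM, and in hypothalamus libraries 1 to 7 it was 4.66, 3.66, 5.74, 6.28, 6.51, 5.86 and 5.19 CPM. The groups did not overlap, and the lowest pars tuberalis library stood well above the highest hypothalamus library. The mean was 51.9 ± 4.67 against 5.42 ± 0.995 CPM (SD, n = 7 each), a 9.58-fold difference (log2 fold change 3.26 ± 0.135 SE, edgeR adjusted p = 2.18e-08 against 2-fold).

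ENSOARG00000008223 came next in that direction. It lay at 104.3, 75.5, 87.0, 114.8, 88.7, 89.9 and 91.7 CPM in pars tuberalis libraries 22 to 28. In hypothalamus libraries 1 to 7 it lay at 10.4, 10.05, 9.28, 12.2, 14.2, 12.3 and 11.3 CPM. Libraries 22 and 25 were highest in the pars tuberalis and library 23 lowest, still above every hypothalamus library. The means of 93.1 ± 12.8 and 11.4 ± 1.67 CPM (SD, n = 7 each) differed 8.16-fold (log2 fold change 3.03 ± 0.125 SE, edgeR adjusted p = 2.18e-08 against 2-fold).

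ENSOARG00000006170 led the features higher in the hypothalamus. Hypothalamus libraries 1 to 7 held 415.7, 480.7, 389.8, 391.4, 387.9, 366.3 and 423.6 CPM, a narrow range with library 2 highest. Pars tuberalis libraries 22 to 28 held 31.7, 45.2, 21.6, 29.997, 47.0, 42.3 and 31.7 CPM, lowest in library 24. The mean was 407.9 ± 37.3 CPM for the hypothalamus and 35.6 ± 9.36 CPM for the pars tuberalis (SD, n = 7 each), an 11.4-fold difference (log2 fold change -3.51 ± 0.168 SE, edgeR adjusted p = 5.26e-08 against 2-fold).

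ENSOARG00000013116 showed the widest gap of the 4. Its hypothalamus values in libraries 1 to 7 were 646.8, 453.6, 376.4, 583.5, 459.2, 462.1 and 259.5 CPM. Its pars tuberalis values in libraries 22 to 28 were 14.1, 17.02, 10.2, 13.9, 24.6, 22.96 and 13.8 CPM. Hypothalamus library 7 was lowest of its tissue and still above all pars tuberalis libraries, of which 26 and 27 were highest. The log2 fold change was -4.79 ± 0.251 SE, so the pars tuberalis level was 27.8-fold lower (edgeR adjusted p = 5.26e-08 against 2-fold).

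**Figure D3:**
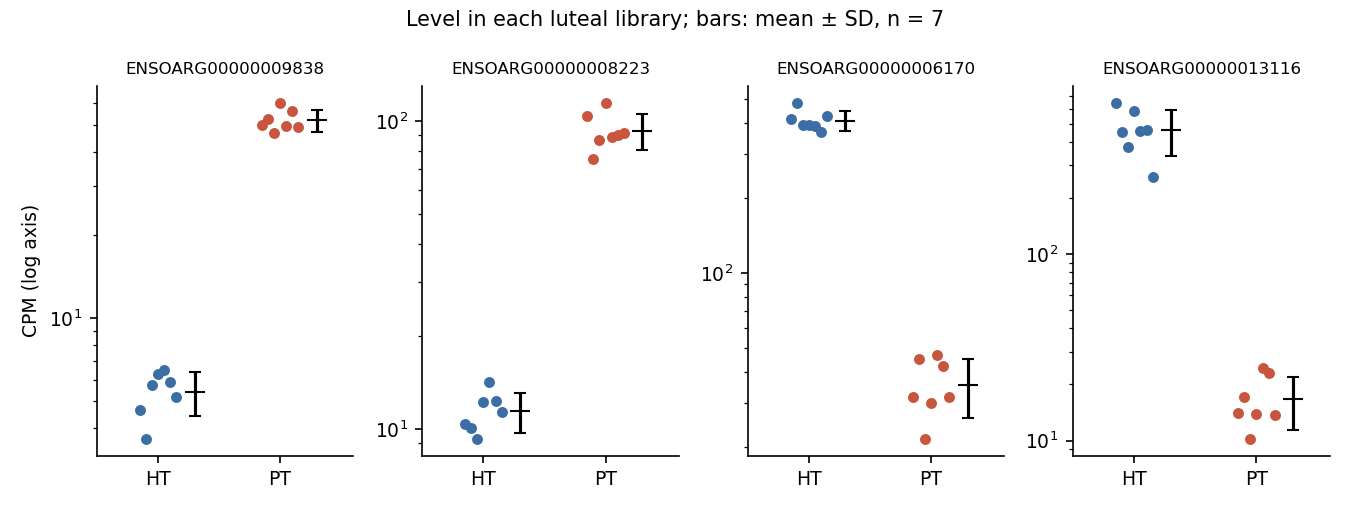
Level of 4 features in each luteal library (CPM, log axis) for the hypothalamus (HT) and the pars tuberalis (PT), with the mean and SD (n = 7 each) beside the points. ENSOARG00000009838 and ENSOARG00000008223 are higher in all 7 pars tuberalis libraries, and ENSOARG00000006170 and ENSOARG00000013116 in all 7 hypothalamus libraries.

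The follicular and anestrous libraries, which the luteal fit did not use, gave the same direction of difference for nearly all luteal features past 2-fold. In separate fits, 10252 of 16076 features (63.8%) differed between the tissues in the follicular phase and 8227 of 15992 (51.4%) in anestrus. Past 2-fold there were 2986 (18.6%) and 2266 (14.2%). The hypothalamus held 62.3% and 67.3% of these, against 60.5% in the luteal fit, so its excess was not particular to the luteal phase. Of the 1395 luteal features past 2-fold in the hypothalamus direction, 1353 were tested in both other phases, and all 1353 were higher in the hypothalamus in both. Among these, 1340 were called in both phases and 1135 passed the 2-fold test in both.

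The pars tuberalis direction was followed in the same way. Of its 912 luteal features past 2-fold, 885 were tested in both other phases, 874 had the same direction in both, and 11 had the opposite sign in 1 of them. Of the 885, 791 were called in both phases and 515 passed 2-fold in both. The 2-fold test was passed by 735 in the follicular phase and by 572 in anestrus. Their median log2 fold change was 2.30 in the luteal libraries, 2.28 in the follicular ones and 1.99 in the anestrous ones. For the hypothalamus direction these medians were -2.43, -2.59 and -2.48. The luteal medians are of features chosen in those libraries. The median standard error over all features was 0.222 in the luteal fit, 0.204 in the follicular and 0.240 in the anestrous fit, the largest of the 3. Whether the pars tuberalis and hypothalamus directions differ in how fully they repeat was not tested.

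Over the 15635 features in all 3 fits, the luteal log2 fold changes correlated with the follicular ones at r = 0.954 (Spearman's rho 0.942) and with the anestrous ones at r = 0.927 (rho 0.914). These are descriptions over features, with no library in common between phases. The sign was the same in all 3 phases for 13149 features (84.1%).

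**Figure D4:**
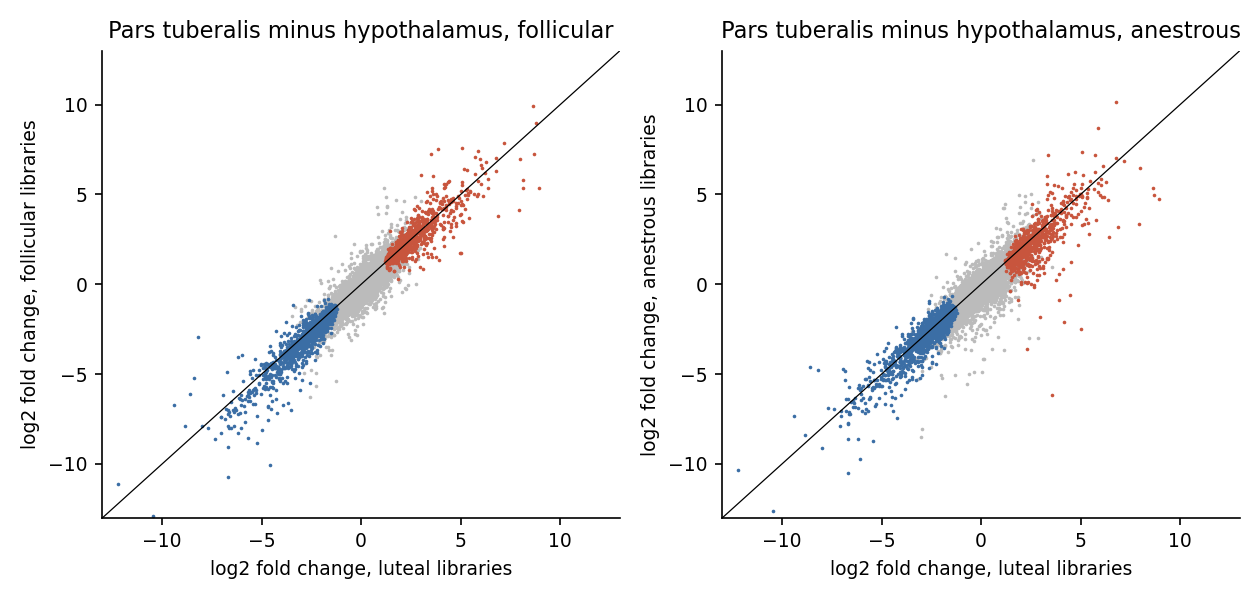
Log2 fold change (pars tuberalis minus hypothalamus) of each feature in the luteal libraries (horizontal) against the follicular (left) and anestrous (right) libraries (vertical), with the line of equality. Features past 2-fold in the luteal fit are coloured by direction, and across features r was 0.954 and 0.927.

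The 4 features named above kept their direction and passed 2-fold in both other phases by edgeR. ENSOARG00000009838 was 11.4-fold higher in the pars tuberalis of follicular libraries (log2 fold change 3.51 ± 0.290 SE, adjusted p = 2.92e-06 against 2-fold) and 7.72-fold higher in the anestrous one (2.95 ± 0.275 SE, adjusted p = 1.22e-05). ENSOARG00000008223 was 8.98-fold and 7.84-fold higher there. ENSOARG00000006170 was 16.03-fold lower in the follicular and 13.7-fold lower in the anestrous pars tuberalis. ENSOARG00000013116 was 52.0-fold and 40.4-fold lower, against 27.8-fold in the luteal libraries. Its luteal pars tuberalis mean was 16.6 ± 5.28 CPM, against follicular 10.1 ± 2.95 CPM and anestrous 11.2 ± 2.68 CPM (SD, n = 7 each, scaled within each phase). In the 42-library fit its luteal difference was 0.69 ± 0.289 SE nearer to 0 on the log2 scale than the mean of the other phases. That did not pass after adjustment by edgeR across all features (adjusted p = 0.9999, unadjusted 0.0212). For ENSOARG00000009838, ENSOARG00000008223 and ENSOARG00000006170 the unadjusted edgeR p of the same contrast was 0.977, 0.766 and 0.192.

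No feature was called for a luteal tissue difference distinct from that of the other phases. Of 17296 features, 0 (0%) were called by edgeR when the luteal difference was set against the mean of the follicular and anestrous differences, with a lowest adjusted p of 0.290. At an unadjusted p under 0.05 there were 530, of which 408 had a higher ratio of pars tuberalis to hypothalamus in the luteal phase and 122 a lower one, where 5% of the features is 865. Without libraries 3 and 24 there were 312. DESeq2 called 6, of which 4 had a fitted difference beyond 10 on the log2 scale that has no meaning as a size, and limma-voom called 0. Without pars tuberalis library 25, 27 or 28, edgeR called 2 features each time, with lowest adjusted p of 0.0415, 0.0326 and 0.0493. For 10761 features (62.2%) the 95% interval of this difference lay within 2-fold, so for the others the depth and number of libraries leave a larger phase effect possible.

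A few luteal features past 2-fold were tested in both other phases and called in neither. There were 13, with a median level of 4.69 CPM. Of these, 12 were among the 885 tested features higher in the luteal pars tuberalis. The remaining 1 was among the 1353 higher in the luteal hypothalamus. Features of the 912 and 1395 past 2-fold that were not tested in both other phases are not counted here. In 6 of the 13 the direction was the same in both other phases. None of the 13 was called in the test of the difference between phases, and 8 had an unadjusted p under 0.05 there, a count that their selection favours.

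Sets of tissue features chosen without the luteal libraries were measured in each luteal library. A hypothalamus set of 1307 features and a pars tuberalis set of 578 features passed the 2-fold test in both the follicular and the anestrous fit. In the luteal fit, all 1292 tested members of the first set were higher in the hypothalamus and 1279 of them were called (99.0%, against 55.4% of all features in either direction). All 569 tested members of the second set were higher in the pars tuberalis and 561 were called (98.6%). Their median luteal differences were 5.37-fold and 5.59-fold.

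The hypothalamus set took 11.5%, 17.7%, 7.68%, 8.90%, 10.4%, 12.9% and 8.89% of the counts in hypothalamus libraries 1 to 7. In pars tuberalis libraries 22 to 28 it took 2.19%, 2.65%, 2.16%, 1.93%, 2.62%, 2.26% and 2.47%. The set was thus higher in every hypothalamus library and spread more among them, with library 2 highest and library 3 lowest. The pars tuberalis set took 4.56%, 4.74%, 2.72%, 3.82%, 4.19%, 3.47% and 4.42% of the counts in libraries 22 to 28. In hypothalamus libraries 1 to 7 it took 0.630%, 0.519%, 0.575%, 0.773%, 0.914%, 0.846% and 0.576%. Library 24 was lowest of the pars tuberalis and library 2 lowest of the hypothalamus. Because the 10 largest features took their largest share of each tissue in libraries 3 and 24, these shares were also taken without the 20 largest features. The pars tuberalis set then took 4.78% in library 24 and 5.18% to 6.08% in the other pars tuberalis libraries, and the hypothalamus set took 12.8% in library 3 and 21.7% in library 2.

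**Figure D5:**
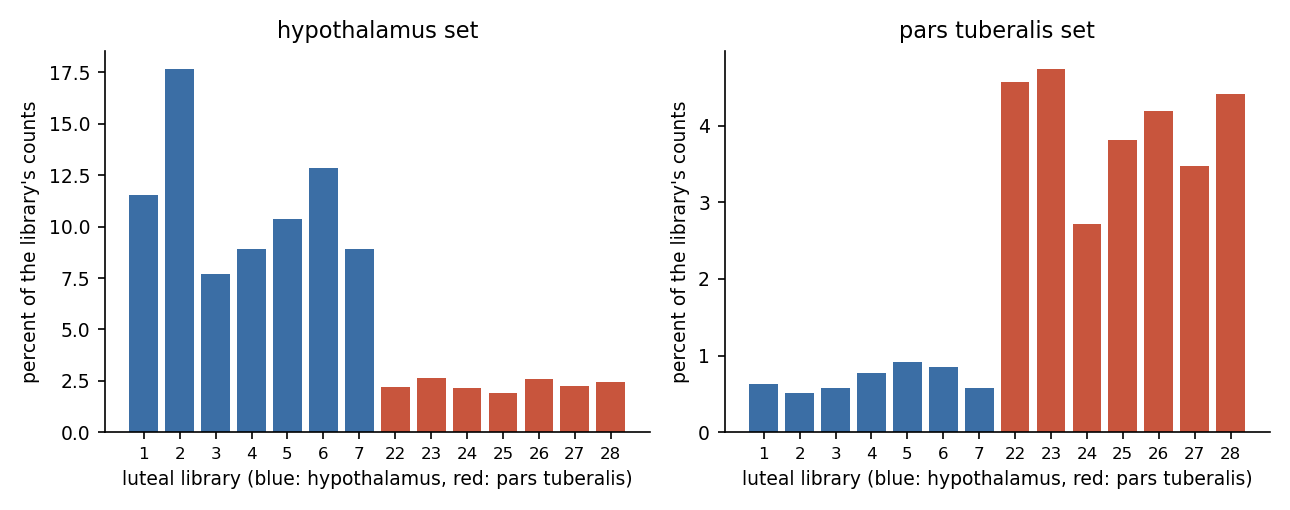
Percent of each luteal library's counts in the hypothalamus set (left, 1307 features) and the pars tuberalis set (right, 578 features), which were chosen in follicular and anestrous libraries. Bars start at 0, blue bars are hypothalamus libraries 1 to 7 and red bars are pars tuberalis libraries 22 to 28, and every library of a tissue lies above the libraries of the other tissue for its own set.

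Set features were present at a low level in the other tissue in every library. They were chosen by a 2-fold difference and not by absence from the other tissue, so this level does not measure tissue purity. Relative to the mean of the 7 hypothalamus libraries, the median hypothalamus set feature lay between 15.02% (library 24) and 21.1% (library 27) in the pars tuberalis libraries. Relative to the pars tuberalis mean, the median pars tuberalis set feature lay between 9.06% (library 2) and 21.05% (library 4) in the hypothalamus libraries. On this measure library 27, the highest of the pars tuberalis for the hypothalamus set, was also the lowest of its tissue for its own set. It lay at 90.6% of the tissue mean, next to library 28 (90.9%). Library 2 was highest of the hypothalamus for its own set (128.7%) and lowest for the other. Shares of counts ranked the pars tuberalis libraries otherwise. By share, library 23 was highest for the hypothalamus set (2.65%) and library 24 lowest for the pars tuberalis set (2.72%). The part of these library differences in the tissue comparison was not tested.

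The luteal hypothalamus libraries had the larger spread. The biological coefficient of variation, fitted in each tissue alone, was 39.8% for the luteal hypothalamus and 31.9% for the luteal pars tuberalis. Over the 11176 features with a mean of at least 5 CPM, the median SD of log2 CPM among 7 libraries was 0.347 for the hypothalamus and 0.278 for the pars tuberalis, and 7222 features (64.6%) had the larger SD in the hypothalamus. With any 1 library left out, the medians ran from 0.322 (without library 3) to 0.358 in the hypothalamus and from 0.246 (without library 24) to 0.283 in the pars tuberalis. These are descriptions with no test, since the features share libraries.

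Features past 2-fold had a larger median spread than the rest in both tissues. In the pars tuberalis direction, 595 features past 2-fold had a mean of at least 5 CPM. Their median SD was 0.573 among hypothalamus and 0.333 among pars tuberalis libraries. An SD over 1 was found for 151 of them in the hypothalamus against 24 in the pars tuberalis. These features have lower counts in the hypothalamus, and counting noise adds more to the SD of log2 values at low counts. Its part in the spread was not tested. The 947 features of the hypothalamus direction had a median SD of 0.573 and 0.411. An SD over 1 was about equally common in both tissues for this direction, with 90 features among hypothalamus and 86 among pars tuberalis libraries. By the median SD, the tissue with the higher level was the more variable one in this direction. The 9634 remaining features had medians of 0.321 and 0.265.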

How the data were processed

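The authors deposited 1 table of raw counts per Ensembl sheep gene ID with 42 library columns. The submitters' processing notes name HISAT2 2.1.0 and StringTie 1.3.5, then SAMtools 1.7 with Trimmomatic 0.38, and also R 3.5.1, DESeq2 and FastQC 0.11.5. What each tool did, the build, the annotation and the strand setting were not given in the sources used here. Counts of near-identical, overlapping or antisense genes are therefore uncertain. Columns were matched by library number, tissue and phase, with 0 columns of no sample. No luteal columns were identical.

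Tissues were compared within the 14 luteal libraries with the quasi-likelihood F test of edgeR 4.0.16 (robust, two-sided; glmTreat against 2-fold) under R 4.3.3, with TMM scaling, filterByExpr (minimum count 10) and Benjamini-Hochberg adjustment at 0.05. Standard errors come from the F statistic. Follicular and anestrous libraries were fitted separately, and the difference between phases in 1 fit of 42 libraries. Log2 CPM values of single libraries use a pseudocount of 0.5, which does not enter the fitted log2 fold changes. Named features are the 2 with the lowest glmTreat p in either direction. Alternatives were DESeq2 1.42.0, limma-voom (limma 3.58.1), other scaling and filters, a replicate block and leaving out libraries. The edgeR test was checked on simulated data. The groups, sets and lists were chosen with earlier results of these data known. Marker lists were not used, because no ID could be paired with a symbol.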

Additional observations from a re-analysis of the deposited data

Results flagged for a closer look

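Each of 34 groups of 7 values (13 library measures and 4 features, in both tissues) was examined for a library far from the others, by the gap to its nearest neighbour as a share of the group's range. Chance alone flags about 1 in 20 such groups, and 3 were found. Pars tuberalis library 24 had a mean correlation of 0.906 with the other luteal pars tuberalis libraries, where the next lowest was 0.931 and the highest 0.942. Hypothalamus library 2 had a mean correlation of 0.722 with the pars tuberalis libraries, where the next lowest was 0.776. Library 2 also lay at -139 on the first principal component, with the nearest hypothalamus library at -96.4. No library was left out of the results for this. Without library 2 edgeR found 2114 features past 2-fold, and without library 24 it found 2278, against 2307 with all 14.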

How the results depend on the processing

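Leaving out each luteal library in turn gave 8365 to 9185 features called and 2114 to 2462 past 2-fold. The 10 other settings gave 8357 to 9864 and 1749 to 2700, all within 1.5 times the reported 8829 and 2307. The largest shift of the median log2 fold change was -0.04 (without the 20 largest features). The count for the luteal difference against the other phases was 0 to 2 when a library was left out, 6 with DESeq2 and 0 under the other settings. Of the 2307 luteal features past 2-fold, 1650 passed 2-fold in both other phases, and 1591 did without anestrous hypothalamus library 15. The 4 named features passed 2-fold in all 21 settings run for each. Sets past 8-fold held 425 hypothalamus and 173 pars tuberalis features, which were selected for a larger tissue difference. Their hypothalamus set took 3.81% of hypothalamus and 0.201% of pars tuberalis counts in place of 11.1% and 2.33%. Their pars tuberalis set took 0.0561% and 1.16% in place of 0.690% and 3.99%. Each share thus fell by a larger factor in the other tissue than in its own. Without the 20 largest features, the means of the sets past 2-fold were 15.6%, 2.65%, 1.11% and 5.61%. That setting, the covariate and leaving out libraries 3 and 24 together were chosen after the data were seen for the results concerned. The labels tie no library to a ewe. With a replicate block of library numbers 21 apart, edgeR called 8786 features and 2326 past 2-fold, and 0 for the difference between phases. Deviations from the tissue mean correlated at -0.09 to 0.23 within these 7 pairs, and in 6 of them the hypothalamus library correlated best with its own pair, which is a hint from the data and not the design. The highest value was that of libraries 3 and 24, which also held the fewest counts of their tissues. Whether the correlations come from shared ewes or from shared library quality was not tested. Depth limits the low-count features: with the same libraries, the median standard error was 0.411 in the lowest abundance class and 0.150 in the highest.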
